A study of Mus musculus and Homo sapiens with 12 samples.

Results

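Fatty acid synthesis and desaturation were followed through the transcripts of ACLY, ACACA, FASN, SCD, FADS1, FADS2, ELOVL6 and SREBF1 in a mouse and a human breast cancer line. Mice carry Scd1 and Scd2 in place of the single human SCD described here, so the set holds 9 mouse and 8 human genes, 17 of the 114564 genes in the 2 tables. The genes were taken by name for their place in the pathway, by a rule that uses no measured value. Earlier results of these data were known when they were chosen, so the set is not independent of the data. All 17 passed the filter on low values, a minimum of 0.5 TPM reached by 3 or more libraries of a line.

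EMT6 cells derive from a mammary tumour of a mouse and MDA-MB-231 cells from a human breast cancer. In each, cells labelled as a knockout of PFKFB4 (PFKFB4-KO) were compared with wild-type cells (WT), 3 libraries per group and 12 in all, with no treatment and with all cells in high-glucose DMEM with serum and antibiotics. PFKFB4 is a bifunctional enzyme that sets the level of a sugar phosphate which activates phosphofructokinase in glycolysis, the pathway that supplies carbon for fatty acids. The labels do not say which exon was edited, whether the knockout cells are a clone or a pool, or what separated the 3 biological replicates of a group. The p-values therefore cover only library-to-library spread, and an effect of the knockout cannot be told apart from a difference between derived lines.

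Fatty acid synthesis begins when ACLY splits cytosolic citrate into acetyl-CoA, which ACACA carboxylates to malonyl-CoA and FASN builds into palmitate. ELOVL6 lengthens palmitate to stearate, SCD places a double bond into these saturated chains, and FADS2 and FADS1 desaturate the polyunsaturated chains taken from the diet. SREBF1 encodes SREBP-1, a transcription factor that is held in the endoplasmic reticulum until it is cleaved and that acts on the promoters of these enzymes.

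Expression was given as TPM, a transcript level per length scaled to a library total of 1000000, and its read depth is unknown. In bulk RNA, fewer cells of a type and less RNA per cell cannot be told apart. Genes at 1 TPM or more numbered 11871 to 12015 in the EMT6 PFKFB4-KO libraries and 12350 to 12426 in the EMT6 WT libraries, and 13038 to 13338 in the MDA-MB-231 PFKFB4-KO libraries and 13423 to 13593 in the MDA-MB-231 WT libraries. Pfkfb4 itself stood at 6.96, 6.87 and 8.24 TPM in EMT6 PFKFB4-KO, against 10.2, 10.5 and 10.4 TPM in EMT6 WT, a log2 fold change of -0.45 (limma adjusted p = 0.00487). The transcript was thus still present at 0.71 of its WT mean, and these values do not show whether the gene was deleted or its protein lost. The human PFKFB4 transcript was not analysed here. The 6 epithelial markers in EMT6 did not move together. Krt8 was higher in PFKFB4-KO (523 to 547 TPM, against 459 to 503 TPM in WT), while Krt14 (mean 3.94 TPM in PFKFB4-KO and 36.5 TPM in WT), Krt18 (15.5 and 36.3 TPM) and Krt19 (0.0177 and 1.95 TPM) were called lower, and Epcam was under 0.3 TPM and Cdh1 under 0.01 TPM in all 6 libraries. Of the 4 mesenchymal markers, Vim was higher (mean 3292 TPM in PFKFB4-KO and 2711 TPM in WT), Fn1 (451 and 616 TPM) and Sparc (187 and 281 TPM) were lower, and Cdh2 was under 0.1 TPM. The part of these differences in the results below was not tested. Human marker genes were not analysed here, since the human table gives identifiers without names.

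In EMT6, 8 of the 9 genes fell in PFKFB4-KO and Fasn did not, where 42.3% of all tested genes were called lower. Together the 9 transcripts summed to 483 ± 16.7 TPM in PFKFB4-KO and 849 ± 49.2 TPM in WT (SD, n = 3 each). Scd1 fell furthest, to 0.319 of its WT mean, followed by Elovl6, Scd2 and Acaca at 0.48 to 0.489 of WT. In MDA-MB-231, 1 of the 8 genes was called lower, FADS2, at 0.585 of its WT mean, where 12.1% of all tested genes were called lower. The other 7 genes did not pass the test, at 0.776 to 0.954 of WT. All 8 log2 fold changes were negative, as were those of 54.6% of all tested genes.

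**Figure D1:**
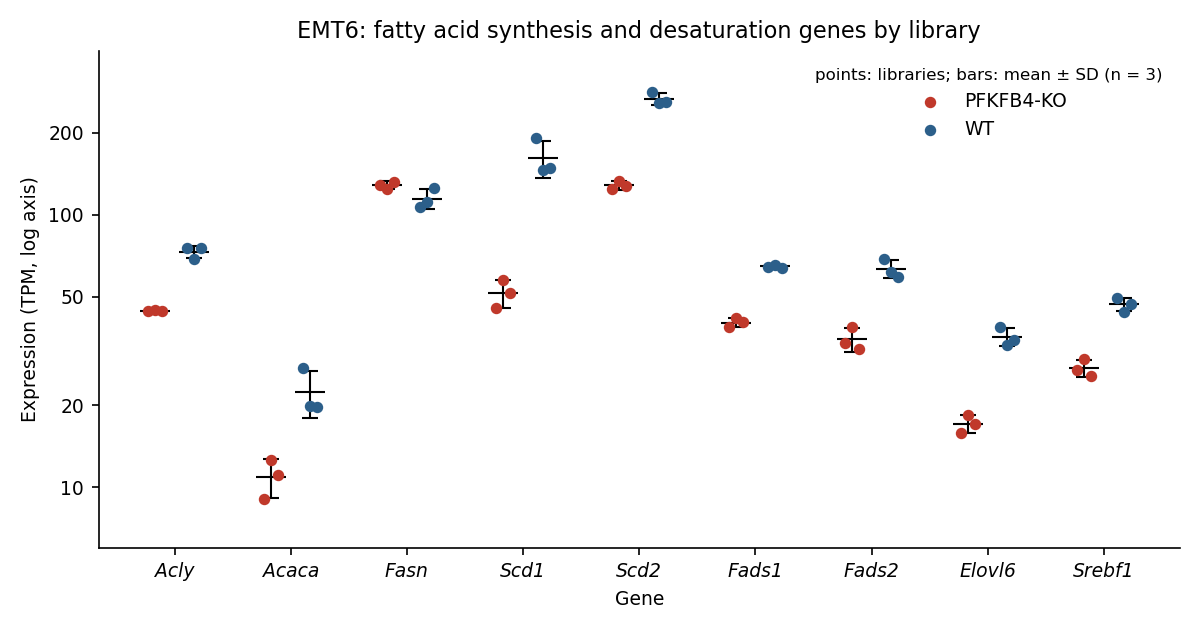
Expression of the 9 genes in each EMT6 library, in TPM on a log axis, with PFKFB4-KO left of WT for each gene, points for libraries and bars for the mean ± SD (n = 3). All 3 PFKFB4-KO libraries lie below all 3 WT libraries for 8 genes, as they do for 48.3% of all tested genes. The groups overlap for Fasn at 124 to 132 TPM in PFKFB4-KO and 107 to 126 TPM in WT.

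The transcript of the transcription factor was lower in EMT6. Srebf1 (ENSMUSG00000020538, chromosome 11, 60199089 to 60222581 on GRCm38) had 26.9, 29.5 and 25.6 TPM in PFKFB4-KO, against 49.3, 44.2 and 47.2 TPM in WT. Every PFKFB4-KO library lay below every WT library, as for 48.3% of all tested genes. The fold change was -0.76 ± 0.07 on the log2 scale (SE, limma adjusted p = 0.000585). Gene-level values do not separate the SREBP-1a and SREBP-1c transcripts, which start at different promoters. Exons of Rai1 on the opposite strand cover 1.93% of the Srebf1 exon length and the strand setting of the counting is not known here.

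The transcripts of the enzymes that supply acetyl-CoA and malonyl-CoA fell with that of Srebf1. Acly (ENSMUSG00000020917, chromosome 11, 100476353 to 100528000) had 44.3, 44.8 and 44.4 TPM in PFKFB4-KO, against 75.3, 69.0 and 75.5 TPM in WT. The PFKFB4-KO libraries differed by under 1 TPM, and the fold change on the log2 scale was -0.71 ± 0.05 (SE, limma adjusted p = 0.00026). Acaca (ENSMUSG00000020532, chromosome 11, 84129672 to 84401651) had 9.03, 12.6 and 11.1 TPM in PFKFB4-KO, against 27.4, 19.9 and 19.7 TPM in WT. It was the least abundant of the 9 genes in both groups and the most variable between libraries, with -0.96 ± 0.17 on the log2 scale (SE, limma adjusted p = 0.00443).

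Fasn, the synthase itself, did not fall with its neighbours in the pathway. Fasn (ENSMUSG00000025153, chromosome 11, 120805846 to 120824547) had 129, 124 and 132 TPM in PFKFB4-KO, against 107, 112 and 126 TPM in WT. One WT library reached into the range of the PFKFB4-KO libraries, and the log2 fold change of 0.16 (95% interval -0.0039 to 0.33) did not pass the test (limma adjusted p = 0.0855). Its sign stayed positive in all 14 alternative settings. Fasn was called higher after median-ratio scaling (0.41, adjusted p = 0.00585), after removal of the trend on exon length (0.60, adjusted p = 0.00509) and without WT replicate 3 (0.23, adjusted p = 0.017). Over the 14 settings its adjusted p ran from 0.00509 to 0.205.

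The transcripts of the elongase and the desaturases fell in EMT6. Elovl6 (ENSMUSG00000041220, chromosome 3, 129532355 to 129638495) had 15.8, 18.4 and 17.1 TPM in PFKFB4-KO, against 38.6, 33.4 and 34.8 TPM in WT. The groups did not overlap, with -1.02 ± 0.08 on the log2 scale (SE, limma adjusted p = 0.000385).

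The stearoyl-CoA desaturases Scd1 and Scd2 lie within 1 Mb of each other on chromosome 19. Scd1 (ENSMUSG00000037071, 44394455 to 44407879) had 45.4, 57.5 and 51.5 TPM in PFKFB4-KO, against 190.8, 145.5 and 148.5 TPM in WT. The highest PFKFB4-KO library held less than the lowest WT library by a wide margin, at -1.63 ± 0.13 on the log2 scale (SE, limma adjusted p = 0.000422). Of the 13499 genes tested in EMT6, 185 had a lower log2 fold change. Scd2 (ENSMUSG00000025203, 44293674 to 44306864), the most abundant of the 9 transcripts in WT, had 124.5, 133.4 and 127.1 TPM in PFKFB4-KO, against 282, 258 and 259 TPM in WT. It lay at -1.05 ± 0.05 on the log2 scale (SE, limma adjusted p = 0.000103), again with no overlap. Of the distinct 50 nt stretches of the annotated Scd1 transcripts, 2.97% also occur in Scd2 transcripts and 3.42% in those of Scd3.

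The polyunsaturated desaturases are neighbours on the same chromosome. Fads1 (ENSMUSG00000010663, 10182888 to 10196877), which adds a double bond late in the chain's synthesis, had 38.65, 41.71 and 40.28 TPM in PFKFB4-KO, against 64.5, 65.6 and 64.0 TPM in WT. Fads2 (ENSMUSG00000024665, 10062765 to 10101746), which acts before it, had 33.8, 38.9 and 32.2 TPM in PFKFB4-KO, against 69.0, 61.9 and 59.4 TPM in WT. Neither gene's groups overlapped, as for 48.3% of all tested genes in this direction. The log2 fold change was -0.67 ± 0.04 for Fads1 and -0.84 ± 0.09 for Fads2 (SE; limma adjusted p = 0.000223 and 0.000946), and the annotated transcripts of these genes share no 50 nt stretch.

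The order of the levels differed between the groups. In EMT6 PFKFB4-KO, Fasn (128 TPM) and Scd2 (128 TPM) stood level at the top with overlapping libraries, followed by Scd1 (51.5), Acly (44.5), Fads1 (40.2), Fads2 (34.96), Srebf1 (27.3), Elovl6 (17.1) and Acaca (10.9). In EMT6 WT, the order by mean was Scd2 (266.5 TPM), Scd1 (162), Fasn (115), Acly (73.3), Fads1 (64.7), Fads2 (63.4), Srebf1 (46.9), Elovl6 (35.6) and Acaca (22.3). Fads1 and Fads2 overlapped between libraries in both groups, and the 6 genes from Acly to Acaca kept their order. EMT6 PFKFB4-KO replicate 2 was the highest of its group for 8 of the 9 genes, and for 42.6% of all tested genes. PFKFB4-KO replicate 1 was the lowest for 6 of the 9 (35.7% of all). WT replicate 1 was the highest of its group for 6 of the 9 (42.2% of all), and WT replicate 2 the lowest for 5 (36.7% of all).

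These counts stand against a broad shift to lower values in EMT6. Limma called 42.3% of the 13499 tested genes lower and 14.5% higher, against 8 lower and 0 higher of the 9 genes. Every PFKFB4-KO library lay below every WT library for 48.3% of the tested genes and above every WT library for 17.9%, against 8 and 0 of the 9. The median log2 fold change was -0.84 over the 9 genes and -0.21 over all tested genes. Under median-ratio scaling, which brings the median of all genes to -0.01, 24.7% of genes were called lower and 27.1% higher, while 8 of the 9 genes were lower and Fasn higher, with a median of -0.60. Without the exon length trend, 26.6% were called lower and 23.2% higher, again with 8 lower and Fasn higher, and a median of -0.47. All 9 log2 fold changes kept their sign under these scalings, and Acaca, the longest of the 9 with 17074 nt of exons, stood at -0.47 once the length trend was removed (adjusted p = 0.0205).

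**Figure D2:**
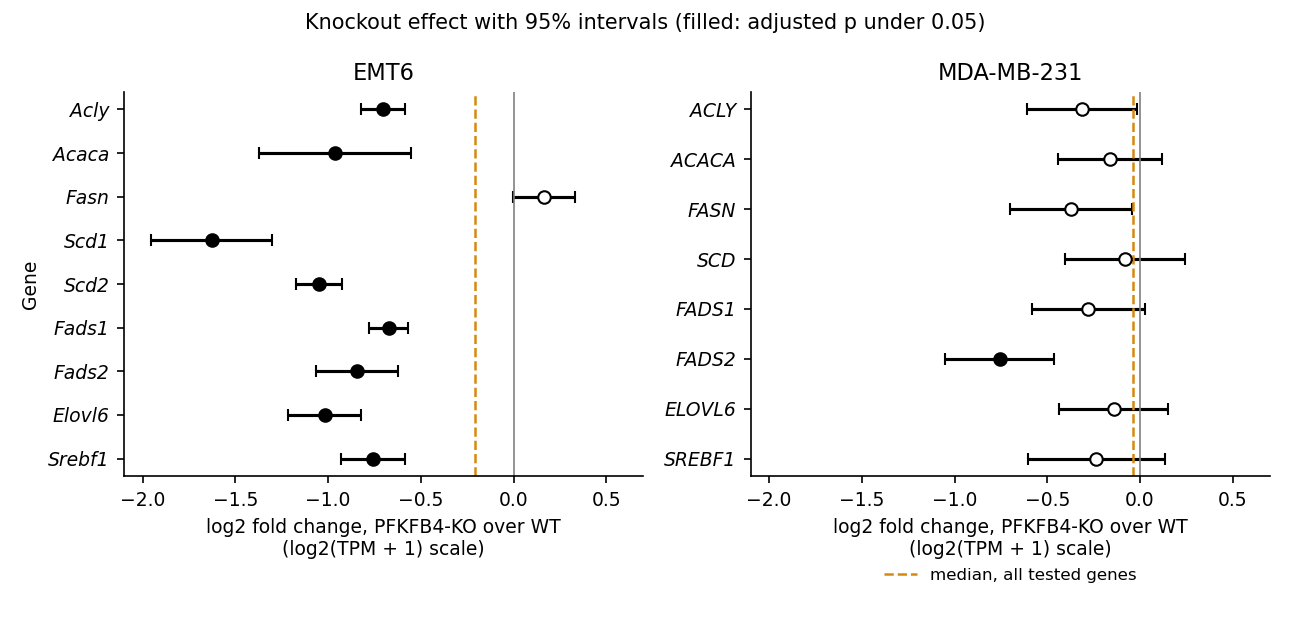
Log2 fold changes of PFKFB4-KO over WT with 95% intervals from limma in EMT6 (left) and MDA-MB-231 (right), filled where adjusted p was under 0.05, with a dashed line at the median of all tested genes (-0.21 and -0.04). In EMT6 8 intervals lie below the median line and that of Fasn lies above it; in MDA-MB-231 the intervals of FADS2 and, narrowly, FASN lie clear of 0 and of the line, that of ACLY lies clear of 0 alone, and only FADS2 passed the adjusted test.

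Ratios between genes of 1 library do not move when that library is rescaled. The summed Scd1 and Scd2 level per Fasn was 1.32, 1.54 and 1.35 in EMT6 PFKFB4-KO, against 4.43, 3.61 and 3.24 in WT, a log2 difference of -1.41. Scd2 per Scd1 was 2.74, 2.32 and 2.47 in PFKFB4-KO, against 1.48, 1.77 and 1.75 in WT, a log2 difference of 0.59. Neither ratio overlapped between groups, while Fads2 per Fads1 (0.869 ± 0.0675 in PFKFB4-KO and 0.981 ± 0.0782 in WT; SD, n = 3 each) and Acaca per Acly (0.245 ± 0.0385 and 0.304 ± 0.0532) did. The exact two-sided permutation test gave p = 0.1 for each of the first pair of ratios, the smallest that 3 against 3 libraries allow, and p = 0.2 for Fads2 per Fads1 and for Acaca per Acly; adjusted over the 7 ratios computed in both lines these were 0.175 and 0.233.

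**Figure D3:**
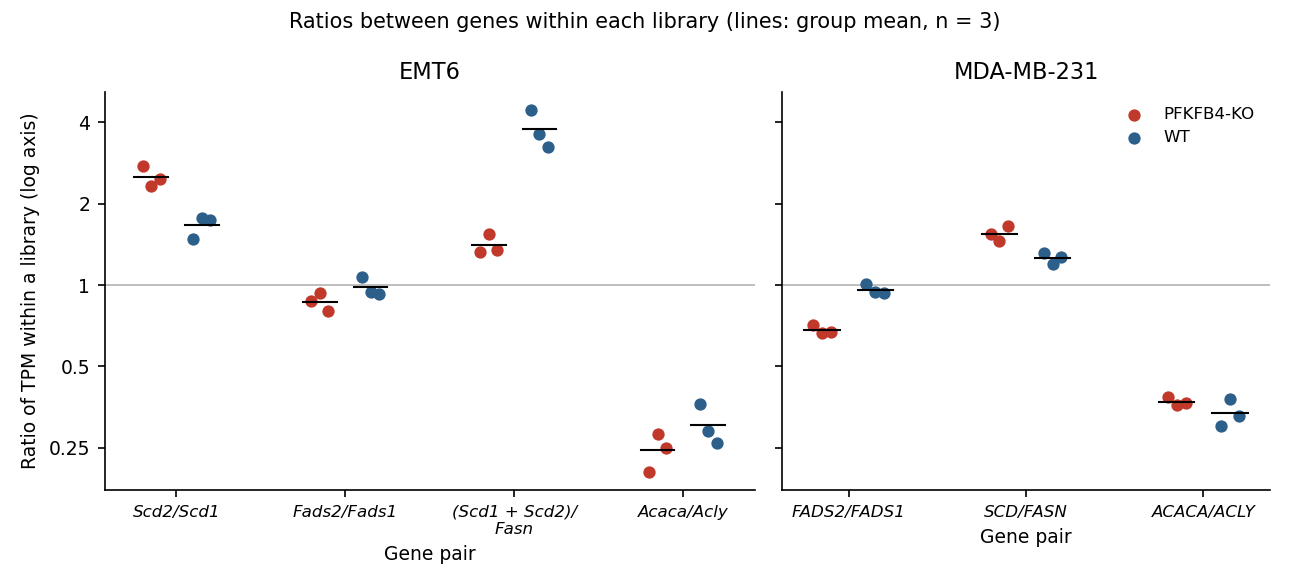
Ratios of TPM between genes within each library, on a log axis, with PFKFB4-KO left of WT, points for libraries and lines for group means (n = 3). The summed Scd1 and Scd2 level per Fasn lies between 1.32 and 1.54 in EMT6 PFKFB4-KO and between 3.24 and 4.43 in WT, and FADS2 per FADS1 between 0.667 and 0.71 in MDA-MB-231 PFKFB4-KO and between 0.932 and 1.01 in WT.

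The tested genes around the loci had medians below 0, but so did all tested genes together, at -0.21. Medians of the neighbours within 1 Mb lay above that value for Srebf1 (-0.12) and Acly (-0.14) and below it for the other genes of the set. Whether any of these local medians differs from that of all tested genes was not tested. On chromosome 19, which holds Scd1, Scd2, Fads1 and Fads2, the median log2 fold change of 472 tested genes was -0.29, and on chromosome 11, which holds Srebf1, Acaca, Acly and Fasn, it was -0.23 over 1063 genes. Within 1 Mb on either side, the 22 tested neighbours of Scd1 had a median of -0.29 and 0 of them had a lower log2 fold change than Scd1. The same held for the 26 neighbours of Acaca (median -0.32), the 6 of Elovl6 (-0.33) and the 33 of Srebf1 (-0.12). Of all tested genes, 1.37% had a lower log2 fold change than Scd1, 6.17% than Acaca, 5.33% than Elovl6 and 11.9% than Srebf1. The other 4 lower genes had neighbours below them. These were 8 of 49 for Acly, 6 of 26 for Fads1, 3 of 27 for Fads2 and 1 of 22 for Scd2. The shares of all tested genes were 14.05% for Acly, 15.5% for Fads1, 9.0% for Fads2 and 4.84% for Scd2. All neighbour counts here leave out the genes of the set. Scd1 (-1.63) lies within 1 Mb of Scd2 (-1.05), and Fads2 (-0.84) within 1 Mb of Fads1 (-0.67), so each has a further lower gene nearby. Of the 50 neighbours of Fasn (median -0.24), 41 lay below Fasn, as did 80.5% of all tested genes. Gene copy number was not tested.

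Promoter sequences are shown for Fasn, which did not fall, beside Elovl6, Fads2 and Srebf1, which did. They come from RefSeq on GRCm38.p6 and hold 250 bases before to 50 after an annotated gene start. The table has 8 such windows for 6 of the 9 genes (Acly, Acaca, Fasn, Fads2, Elovl6 and Srebf1). Srebf1 has 3 windows, and the one that holds both kinds of match is shown. Capitals mark TCACNC, the opening letters of the sterol regulatory element TCACNCCAC, and CCAAT, the box bound by NF-Y, on either strand.
Fasn, chr11:120824498-120824797, minus strand: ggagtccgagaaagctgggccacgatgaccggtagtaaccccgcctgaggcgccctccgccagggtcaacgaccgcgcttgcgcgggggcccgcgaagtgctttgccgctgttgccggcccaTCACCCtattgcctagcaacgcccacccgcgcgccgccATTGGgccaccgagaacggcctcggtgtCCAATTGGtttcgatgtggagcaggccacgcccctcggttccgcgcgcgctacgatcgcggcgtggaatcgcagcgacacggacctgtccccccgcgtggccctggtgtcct
Elovl6, chr3:129532136-129532435, plus strand: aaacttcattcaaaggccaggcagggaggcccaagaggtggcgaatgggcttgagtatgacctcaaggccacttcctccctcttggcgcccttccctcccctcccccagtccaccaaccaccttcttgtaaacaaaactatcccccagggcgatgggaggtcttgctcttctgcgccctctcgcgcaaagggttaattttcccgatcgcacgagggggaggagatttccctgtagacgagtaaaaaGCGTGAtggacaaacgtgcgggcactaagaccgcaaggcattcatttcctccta
Fads2, chr19:10101454-10101753, minus strand: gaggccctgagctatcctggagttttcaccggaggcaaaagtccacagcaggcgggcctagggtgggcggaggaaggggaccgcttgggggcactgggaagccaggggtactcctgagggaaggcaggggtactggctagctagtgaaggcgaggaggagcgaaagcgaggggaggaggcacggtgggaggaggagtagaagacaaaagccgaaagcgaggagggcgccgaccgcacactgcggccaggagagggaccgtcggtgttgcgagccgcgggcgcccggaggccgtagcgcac
Srebf1, chr11:60210422-60210721, minus strand: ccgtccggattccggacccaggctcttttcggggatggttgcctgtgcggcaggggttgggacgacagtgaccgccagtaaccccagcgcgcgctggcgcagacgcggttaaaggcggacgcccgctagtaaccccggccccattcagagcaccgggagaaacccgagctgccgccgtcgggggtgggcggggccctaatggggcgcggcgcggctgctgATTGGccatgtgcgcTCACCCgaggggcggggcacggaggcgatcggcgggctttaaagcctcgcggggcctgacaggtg
The Fasn window held TCACNC at -128 and 3 matches to CCAAT at -90, -62 and -59, the last pair overlapping, counted from the gene start to the first base of the match. The Srebf1 window held CCAAT at -30 and TCACNC at -15, the Elovl6 window held TCACNC at -4, and the Fads2 window held neither. The full TCACNCCAC and the E-box CACGTG were in 0 of the 8 windows, against 1.24% and 7.15% of the 32851 windows in the table. TCACNC was in 3 of the 8 and CCAAT in 4, against 43.2% and 37.4% of all windows. The letters TCACNC were chosen after these sequences were seen.

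The wider lipogenic list in EMT6 held 39 further genes, of which 31 were tested, 7 did not pass the filter and Scd5 has no mouse row. Of the 31, 17 were called lower and 3 higher, where 42.3% of all tested genes were lower and 14.5% higher, and the median log2 fold change was -0.26, close to the -0.21 of all tested genes. After median-ratio scaling 8 were lower and 10 higher (median -0.03), where 24.7% of all tested genes were lower and 27.1% higher. Without the length trend 9 were lower and 5 higher (median -0.03), where 26.6% of all tested genes were lower and 23.2% higher.

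Of the 9 tested regulators, 6 were lower and 1, Insig1, was higher (42.3% and 14.5% of all tested genes). After median-ratio scaling 3 were lower and 2 higher (24.7% and 27.1% of all), and without the length trend 3 and 1 (26.6% and 23.2% of all). Srebf2, the sister factor that acts mainly on cholesterol synthesis, had 39.65, 42.5 and 41.67 TPM in PFKFB4-KO, against 61.9, 57.8 and 62.0 TPM in WT (log2 fold change -0.54, limma adjusted p = 0.000572; -0.30 under median-ratio scaling, adjusted p = 0.00222). Scap, which escorts SREBPs out of the endoplasmic reticulum, had 14.03, 18.92 and 16.0 TPM in PFKFB4-KO, against 27.76, 23.96 and 26.09 TPM in WT (-0.64, adjusted p = 0.00498; -0.41 under median-ratio scaling, adjusted p = 0.018). Insig1, which holds the SCAP complex back and is itself an SREBP target, had 48.4, 52.6 and 51.2 TPM in PFKFB4-KO, against 39.33, 38.34 and 38.15 TPM in WT. Every PFKFB4-KO library lay above every WT library for Insig1 (0.38, adjusted p = 0.00135; 0.63 under median-ratio scaling, adjusted p = 0.000229). Insig2, its paralog, had 100.2, 123 and 116 TPM in PFKFB4-KO, against 169, 136 and 155 TPM in WT (-0.43, adjusted p = 0.0167), and was not called after median-ratio scaling (-0.19, adjusted p = 0.148) or without the length trend (-0.26, adjusted p = 0.0816).

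Among the 6 tested synthesis genes of the wider list, 2 were lower and 0 higher, against 42.3% and 14.5% of all tested genes. Median-ratio scaling gave 1 lower and 2 higher (24.7% and 27.1% of all). Removal of the length trend gave 0 and 1 (26.6% and 23.2% of all). Of 8 tested elongation genes, 5 were lower and 0 higher, against 42.3% and 14.5% of all tested genes. After median-ratio scaling 3 were lower and 3 higher (24.7% and 27.1% of all), and without the length trend 5 and 1 (26.6% and 23.2% of all). Elovl7, an elongase of long chains, had 4.23, 3.98 and 3.70 TPM in PFKFB4-KO, against 8.34, 7.34 and 8.10 TPM in WT (-0.84, limma adjusted p = 0.000573), and Hacd3, a dehydratase of the elongation cycle, stood at 10.44, 10.86 and 10.08 TPM in PFKFB4-KO, against 16.1, 16.43 and 15.83 TPM in WT (-0.58, adjusted p = 0.000561). Of 4 tested acyl-CoA synthetases, which activate free fatty acids, 2 were lower and 1 higher, against the same 42.3% and 14.5%, and 1 was lower and 1 higher in each of the other scalings (24.7% and 27.1%, and 26.6% and 23.2%, of all). Acsl3 had 26.8, 29.8 and 27.4 TPM in PFKFB4-KO, against 56.9, 49.8 and 45.8 TPM in WT (-0.83, adjusted p = 0.000948), while Acsl1 had 9.09, 10.4 and 10.0 TPM in PFKFB4-KO, against 7.63, 6.76 and 6.46 TPM in WT (0.45, adjusted p = 0.00593). The separate mitochondrial fatty acid synthesis had 3 tested genes, 1 lower and 1 higher, against the same 42.3% and 14.5%. After median-ratio scaling 0 were lower and 2 higher (24.7% and 27.1% of all), and without the length trend 0 and 1 (26.6% and 23.2% of all). Mecr, the reductase of that pathway, was higher, with 42.3, 42.5 and 44.0 TPM in PFKFB4-KO, against 30.5, 29.9 and 30.9 TPM in WT (0.48, adjusted p = 0.000443). Elovl7, Hacd3, Acsl3, Acsl1 and Mecr kept direction and call after median-ratio scaling and without the length trend. The 1 tested desaturation gene, Fads3, was lower (-0.30, limma adjusted p = 0.0129), as were 42.3% of all tested genes. It was not called after median-ratio scaling (-0.06, adjusted p = 0.57) or without the length trend (-0.10, adjusted p = 0.29).

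**Figure D4:**
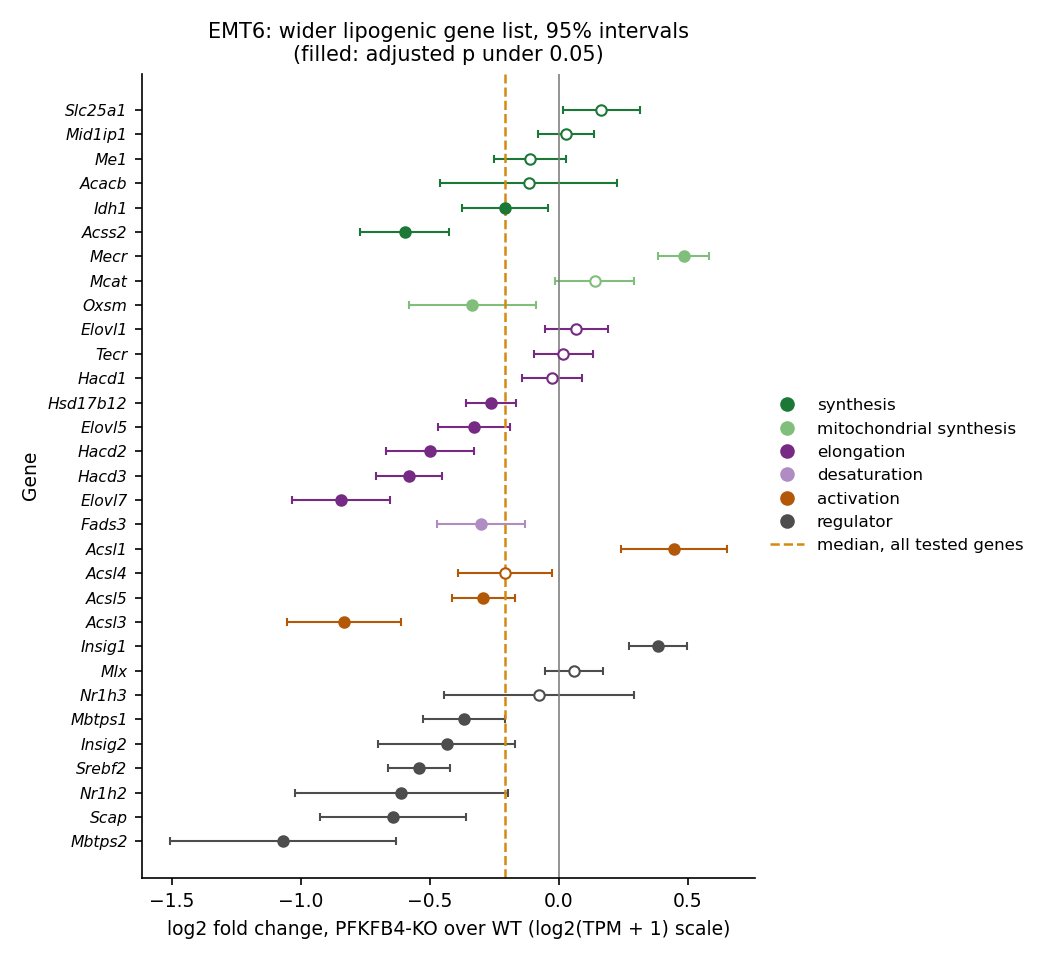
Log2 fold changes of PFKFB4-KO over WT with 95% intervals for the 31 tested genes of the wider lipogenic list in EMT6, coloured by role and filled where adjusted p was under 0.05, with a dashed line at the median of all tested genes. The genes spread on both sides of that line at -0.21, from Mbtps2, a protease that cleaves SREBPs, at -1.07 to Mecr at 0.48.

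Fabp4, a fatty acid-binding protein typical of adipocytes, stood at 53.92, 48.65 and 47.15 TPM in EMT6 PFKFB4-KO, against under 0.1 TPM in each WT library. The other 7 adipocyte markers summed to 0.0892 to 0.191 TPM in PFKFB4-KO and 0.0962 to 0.177 TPM in WT, with Cidec, Lep and Cfd at 0 in all 6 libraries. Leukocyte markers summed to 0.356 to 0.866 TPM in PFKFB4-KO and 0.0427 to 0.133 TPM in WT, with 0 of 6 markers at a mean of 1 TPM in either group, and endothelial markers to under 0.1 TPM in each library. The part of Fabp4 and of these marker lists in the falls above was not tested.

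In MDA-MB-231, FADS2 was the single gene of the 8 to pass the test. The human gene names here rest on the identifiers listed for the 8 genes, and positions are not given because no human annotation was used. FADS2 (ENSG00000134824) had 24.7, 31.8 and 29.6 TPM in PFKFB4-KO, against 54.68, 47.45 and 45.25 TPM in WT. All PFKFB4-KO libraries lay below all WT libraries, with -0.76 ± 0.12 on the log2 scale (SE, limma adjusted p = 0.00837). Its call held in all 13 alternative settings, at -0.83 to -0.66 with adjusted p of 0.00452 to 0.0405.

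FASN, ACLY and FADS1 were separate between groups without passing the test. Every PFKFB4-KO library lay below every WT library for 22.9% of all tested genes. FASN (ENSG00000169710) had 28.3, 41.2 and 36.1 TPM in PFKFB4-KO, against 46.7, 45.6 and 43.8 TPM in WT (log2 fold change -0.37, 95% interval -0.70 to -0.04, limma adjusted p = 0.109). ACLY (ENSG00000131473) had 33.2, 41.4 and 43.8 TPM in PFKFB4-KO, against 53.5, 47.2 and 46.1 TPM in WT (-0.31, interval -0.61 to -0.01, adjusted p = 0.13). FADS1 (ENSG00000149485) had 34.8, 47.7 and 44.3 TPM in PFKFB4-KO, against 54.21, 50.53 and 48.55 TPM in WT (-0.28, interval -0.58 to 0.03, adjusted p = 0.177).

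The remaining 4 genes overlapped between groups. SCD (ENSG00000099194), whose mouse counterpart Scd1 fell furthest in EMT6, had 43.9, 59.9 and 59.4 TPM in MDA-MB-231 PFKFB4-KO, against 61.3, 54.4 and 55.3 TPM in WT. The PFKFB4-KO libraries 2 and 3 lay above 2 of the WT libraries, and the log2 fold change was -0.08 with an interval of -0.40 to 0.24 (limma adjusted p = 0.716). ELOVL6 (ENSG00000170522) had 52.6, 57.4 and 52.9 TPM in PFKFB4-KO, against 67.08, 64.09 and 49.99 TPM in WT (-0.14, interval -0.43 to 0.15, adjusted p = 0.46), and its value was -0.06 without WT replicate 1, -0.09 without WT replicate 2 and -0.27 without WT replicate 3. SREBF1 (ENSG00000072310) had 19.4, 23.2 and 29.6 TPM in PFKFB4-KO, against 29.4, 28.6 and 26.3 TPM in WT (-0.24, interval -0.61 to 0.13, adjusted p = 0.329). ACACA (ENSG00000278540) had 12.75, 14.9 and 16.02 TPM in PFKFB4-KO, against 16.12, 17.85 and 15.05 TPM in WT (-0.16, interval -0.44 to 0.12, adjusted p = 0.381).

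**Figure D5:**
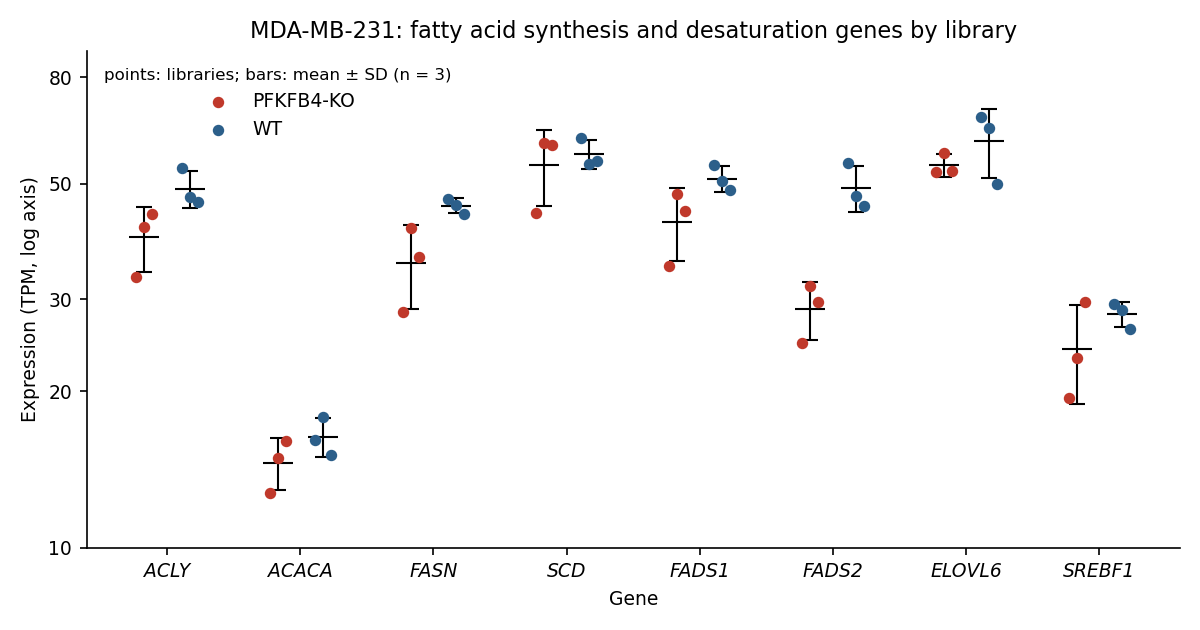
Expression of the 8 genes in each MDA-MB-231 library, in TPM on a log axis, with PFKFB4-KO left of WT, points for libraries and bars for the mean ± SD (n = 3). FADS2 lies at 24.7 to 31.8 TPM in PFKFB4-KO and 45.25 to 54.68 TPM in WT, and the lowest PFKFB4-KO point of each gene is replicate 1.

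The PFKFB4-KO libraries of MDA-MB-231 were not alike. PFKFB4-KO replicate 1 was the lowest of its group for all 8 genes, and for 55.6% of all tested genes, and its deviation from the group mean had a median of -0.25 on the log2 scale over the 8 genes and -0.07 over all tested genes. WT replicate 1 was the highest of its group for 7 of the 8, and for 36.0% of all tested genes. WT replicate 3 was the lowest of its group for 7 of the 8, and for 40.7% of all tested genes. Without PFKFB4-KO replicate 1, FADS2 stayed lower (-0.66, limma adjusted p = 0.0168), FASN stood at -0.23, ACLY at -0.19, FADS1 at -0.15, SREBF1 at -0.10, ACACA at -0.07 and ELOVL6 at -0.12, and SCD changed sign to 0.07 (adjusted p = 0.621).

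Counts in MDA-MB-231 stand against 12.1% of 15299 tested genes called lower and 7.97% called higher, where 1 of the 8 genes was lower and 0 were higher. Every PFKFB4-KO library lay below every WT library for 4 of the 8, against 22.9% of all tested genes. Under median-ratio scaling 10.8% of genes were called lower and 11.3% higher, with the same 1 of 8. The median log2 fold change was -0.26 over the 8 genes and -0.04 over all tested genes. The 8 transcripts summed to 293 ± 37.7 TPM in PFKFB4-KO and 356 ± 26.3 TPM in WT (SD, n = 3 each).

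Ratios within a library were also taken in MDA-MB-231. FADS2 per FADS1 was 0.71, 0.667 and 0.668 in PFKFB4-KO, against 1.01, 0.939 and 0.932 in WT, with no overlap. SCD per FASN was 1.55, 1.45 and 1.65 in PFKFB4-KO, against 1.31, 1.19 and 1.26 in WT, also with no overlap and higher in PFKFB4-KO, where the corresponding mouse ratio was lower. ACACA per ACLY was 0.37 ± 0.0127 in PFKFB4-KO and 0.335 ± 0.0391 in WT and overlapped (SD, n = 3 each). The exact two-sided permutation p was 0.1 for each of the first pair, the smallest possible, and 0.3 for the last, or 0.175 and 0.3 adjusted over the 7 ratios.

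In MDA-MB-231 PFKFB4-KO, SCD (54.4 TPM) and ELOVL6 (54.3 TPM) overlapped at the top, FADS1 (42.3), ACLY (39.5), FASN (35.2), FADS2 (28.7) and SREBF1 (24.04) each overlapped the next, and ACACA (14.6) stood apart. In MDA-MB-231 WT, ELOVL6 (60.4 TPM) and SCD (57.0 TPM) overlapped at the top, FADS1 (51.1), FADS2 (49.1), ACLY (48.9) and FASN (45.4) each overlapped the next, and SREBF1 (28.1) and ACACA (16.3) stood apart. FADS2 thus ranked below ACLY and FASN in PFKFB4-KO and above them in WT.

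Side by side, FADS2 was lower in both lines, at -0.84 in EMT6 and -0.76 in MDA-MB-231 on the log2 scale. Scd1 and Scd2 stood at -1.63 and -1.05 in EMT6 and SCD at -0.08 in MDA-MB-231, Elovl6 at -1.02 and ELOVL6 at -0.14, and Fasn at 0.16 and FASN at -0.37. The tables were normalized separately and the human identifiers are not named over the whole table, so the difference between lines was not tested.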

How the data were processed

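RNA sequencing of 12 libraries was analysed, 3 PFKFB4-KO and 3 WT in each of EMT6 and MDA-MB-231. Per the labels' protocols, poly(A) RNA libraries were made with the Roche HyperPrep kit. The submitters' processing notes name the builds GRCh38.p7 and mm10 and the tools TopHat2 2.1.1, Subread 1.6.4, featureCounts and CASAVA 1.8.2. For settings, strand and annotation release, the entry is: not given in the sources used here. Values were deposited by the authors as TPM, 1 table per line. The knockout columns carry a code that no label explains and were assigned by elimination, because the remaining columns carry wild-type names.

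Per line, limma 3.58.1 (R 4.3.3) was run with its mean-variance trend on log2(TPM + 1), a scale that understates changes of low genes. The minimum was 0.5 TPM, reached by 3 or more libraries, and p was adjusted by Benjamini-Hochberg over all tested genes, with calls at 0.05. Intervals are 95% intervals from the same fit. Ratios and figures used Python 3.11.15 with scipy 1.17.1. The fit was tested on simulated data that held no broad shift across genes, so that test does not cover a shift such as the one in EMT6. Mouse positions and exon lengths are from GENCODE M21 on GRCm38, and 54097 of 54331 mouse identifiers had a symbol. All genes of the set are named; of the wider list, up to 4 called genes per direction with the smallest adjusted p and at least 1 TPM in the higher group are named, with Srebf2, Scap, Insig1 and Insig2. Mbtps2, the lowest of the list, Fads3, its 1 tested desaturation gene, and the adipocyte marker Fabp4 were named after their values were seen. The genes and lists were chosen with earlier results of these data known.

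Alternatives were no mean-variance trend, median-ratio scaling, omission of the 10 most abundant genes, removal of the exon length trend (a lowess curve per library, EMT6), no filter, a filter at 1 TPM, a pseudocount of 0.1, each library left out, and the replicate number as a block.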

Additional observations from a re-analysis of the deposited data

How the results depend on the processing

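In EMT6 the count of 8 genes lower held in all 14 alternatives, and 0 higher became 1, Fasn, under median-ratio scaling, with the length trend removed and, leaving out a library (0 to 1), without WT replicate 3. Of the wider list, 17 lower and 3 higher became 8 and 10 under median-ratio scaling and 9 and 5 with the length trend removed, and all tested genes, 5705 lower and 1954 higher, became 3329 and 3661, and 3589 and 3124. In MDA-MB-231 the counts of 1 lower and 0 higher held in all 13 alternatives. All tested genes there, 1845 lower and 1220 higher, became 708 to 1458 and 515 to 1071 when a library was left out, a fall of over 1.5 times without WT replicate 1 (708 and 515), WT replicate 3 (922 and 704) and PFKFB4-KO replicate 2 (1035 and 518), and for higher calls without WT replicate 2 (802) and PFKFB4-KO replicate 3 (539). SCD ranged from -0.15 to 0.07 when a library was left out and turned sign without PFKFB4-KO replicate 1 (0.065). With a replicate block, all tested genes called numbered 1030 lower and 534 higher in MDA-MB-231, and no gene of the set changed its call in either line; same-numbered libraries had deviations with correlations not all above 0.1 (0.065, -0.017 and 0.073 in EMT6 and 0.002, 0.114 and -0.127 in MDA-MB-231), so the numbers were not taken as pairs. The 7 ratios kept their sign without each library. The cause of these changes was not tested. The wider list in MDA-MB-231, the exon length trend there and the fit of the difference between lines were not run, since the human identifiers were not named. The depth behind the TPM values is unknown, so counting error could not be given.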
